A study of Rattus norvegicus with 6 samples.

Results

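In rat cortical neurons, 6 of the 32447 genes with exon counts held at least 2 exon bins whose usage shifted between AAV.ULK1.DN and AAV.CTRL, apart from 1 further gene in which all bins shifted. They held 98 of the 246035 bins. An exon bin is a whole exon or, where transcripts of a gene place an exon's ends differently, one of the resulting pieces. The usage of a bin is its count relative to that of all other bins of the gene together. The 6 genes are listed by Ensembl identifier as ENSRNOG00000056135, ENSRNOG00000012579, the union of the overlapping genes ENSRNOG00000020249 and ENSRNOG00000020185, ENSRNOG00000013884, ENSRNOG00000024428 and ENSRNOG00000006030. The identifiers could not be matched to gene names here, so the genes are described by their bins, and the labelled cell type could not be checked against its markers. Every value below compares AAV.ULK1.DN with AAV.CTRL in the same 6 cultures that were used to choose the genes. The values are therefore a description. Adjusted p-values of these bins, also those from other fits, are the values of the selection and not separate evidence.

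The neurons came from wild-type rat embryos on embryonic day 18 and were seeded at 400000 neurons per well. On day 1 in vitro (DIV 1) they received an adeno-associated viral vector, and RNA was taken at DIV 8 from 3 independent cultures per group. Both vectors express the fluorophore mCherry under the neuronal human synapsin promoter. AAV.ULK1.DN also expresses the C-terminal domain of the kinase ULK1 from such a promoter, whereas AAV.CTRL (AAV.mCherry in the labels) carries an untranslated fragment in its place. The dose was 5000000 transducing units per well for AAV.CTRL and 9000000 for AAV.ULK1.DN, so vector dose and transgene cannot be told apart. Whole wells were lysed, and a change in the mix of cells cannot be told apart from a change of RNA per cell.

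ULK1 is a serine/threonine kinase that starts autophagy, the degradation of cell components in lysosomes. The C-terminal domain alone lacks the kinase domain and acts as a dominant negative. A gene can give several transcripts by alternative splicing, by alternative transcription starts and by alternative 3′ ends. Alternative splicing tends to move single exons, whereas a different start or end of transcription tends to move a run of neighbouring exons together. The bins had no coordinates here, so the direction of their numbering along a transcript was not known. A run with low bin numbers can therefore not be placed at the start or the end of a transcript. Which of these processes moved a run was not tested. The ratio that defines usage can change because the bin changed, because the other bins changed, or because both did, and the bin's own count and the count of the other bins separate these cases.

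The counts in bins summed to between 34352754 and 39842066 per culture, with overlapping ranges in both groups. Reads outside the bins came to 46.3 to 48.1% of the sum of the bin counts and these reads. The same fragment can count in several bins, so this is not a share of reads. Counts were normalised by size factors. Raw counts of a bin or run are listed for each group in the order of cultures 1, 2 and 3. Of the 98 bins, 95 had counts and could be fitted, and 73 had a mean of at least 10 normalised counts. The other 25 bins lay below this limit, and 3 of them, in ENSRNOG00000013884, had no count in any culture. The further gene, ENSRNOG00000037505, passed the threshold in all of its 28 bins and was taken to be Ulk1 for that reason, so it gives no separate check of the labels.

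The values that chose the 6 genes were the adjusted p-values of a DEXSeq model fitted to all bins, with a threshold of 0.05. Over the series, 70 of 171161 bins passed, which is 0.0409%. In the 6 genes, 17 bins passed, 10 with higher usage (0.0169% over the series) and 7 with lower usage (0.024% over the series). Their adjusted p-values ran from 7.05e-12 for E008 of the gene union to 0.0463 for E012 of the same union. The bin just outside the threshold was E002 of ENSRNOG00000012579, with a log2 change of usage of -2.75 and an adjusted p of 0.0540 from the same model. Next to it lay E014 of ENSRNOG00000024428, with an adjusted p of 0.0688. A passed bin next to one that narrowly missed therefore differs little from it, and all bins of each gene are described.

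The bin counts showed 3 kinds of shift. In ENSRNOG00000012579 and ENSRNOG00000024428, a run of weakly covered bins was several times lower under AAV.ULK1.DN, while the bins that hold most of the counts overlapped between the groups. In ENSRNOG00000013884 and in the gene union, the summed count of a run of bins was moderately lower, while the neighbouring run was higher in the union and overlapped between the groups in ENSRNOG00000013884. In ENSRNOG00000056135 and ENSRNOG00000006030, all bins moved the same way, but not equally. In the plot of each bin's change by bin number, these shifts appear as steps between neighbouring bins.

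**Figure D1:**
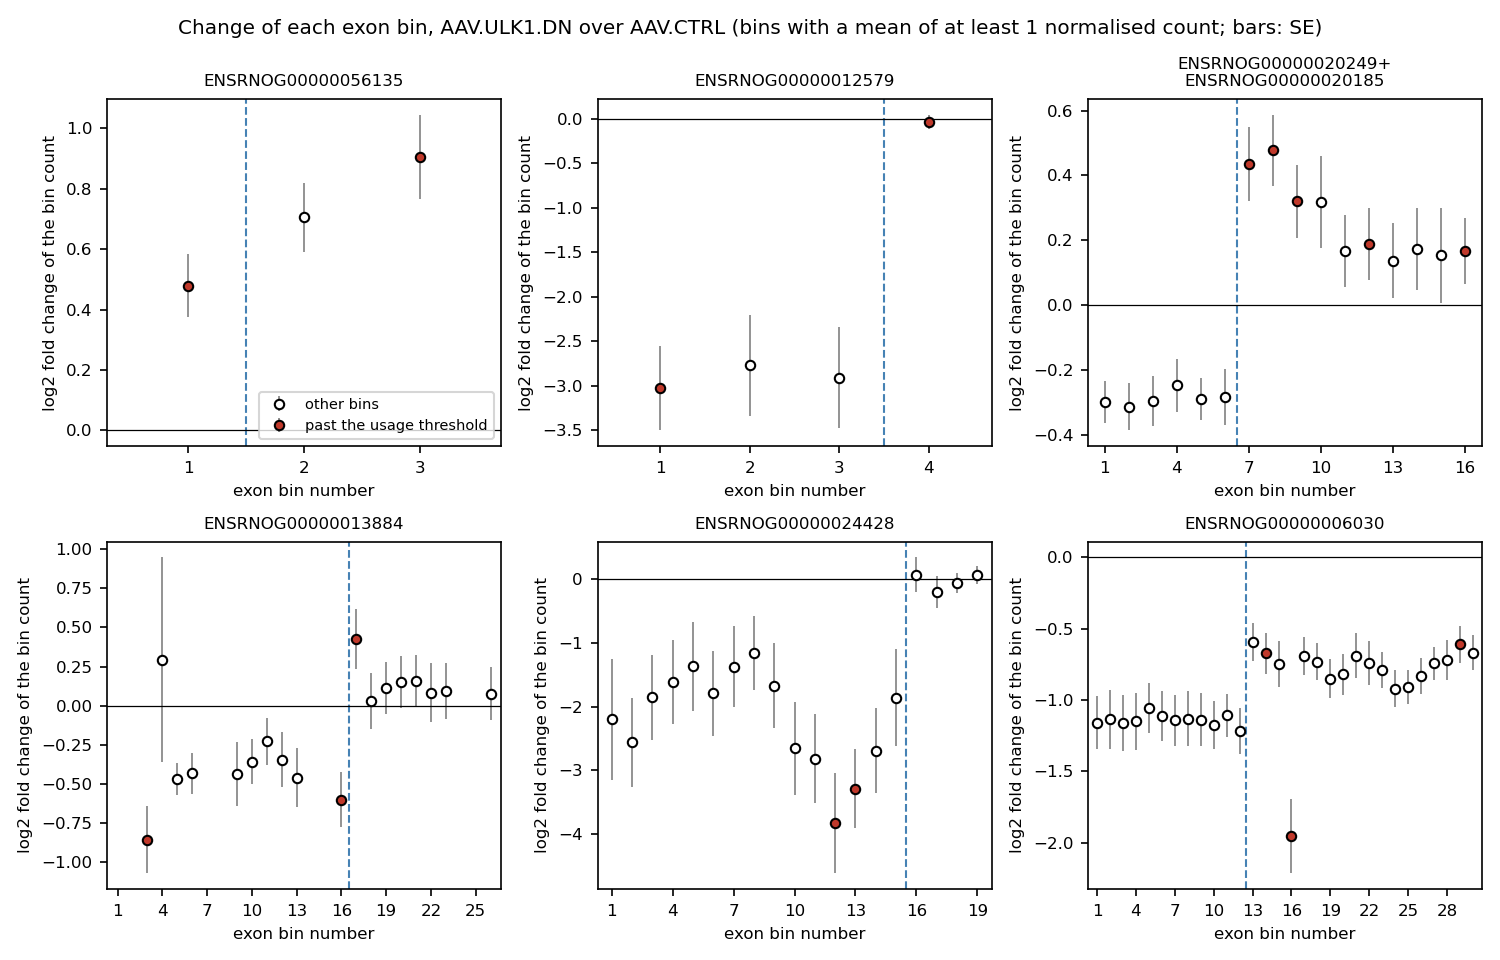
The log2 fold change of each bin's own count (vertical axis, AAV.ULK1.DN over AAV.CTRL, 3 cultures each, bars are standard errors) is plotted against the bin number for the 6 genes, for bins with a mean of at least 1 normalised count. Filled points are the 17 bins past the usage threshold, and the dashed line separates the 2 runs of bins described in the text; the vertical scales differ between panels.

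ENSRNOG00000012579 has 4 bins, and E004 held nearly all of its reads. The counts of E004 were 5540, 4575 and 4532 under AAV.CTRL and 4804, 4911 and 4699 under AAV.ULK1.DN. The groups overlapped, and the normalised count was 4884 ± 475 under AAV.CTRL and 4764 ± 314 under AAV.ULK1.DN (SD, n = 3 cultures per group). E001 had 27, 33 and 15 counts under AAV.CTRL and 2, 3 and 4 under AAV.ULK1.DN. Every AAV.ULK1.DN culture lay below every AAV.CTRL culture in E001, and the same held for E002 and E003.

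Summed over E001 to E003, the counts were 58, 84 and 36 under AAV.CTRL and 3, 8 and 12 under AAV.ULK1.DN. The log2 fold change of this sum was -2.98 (SE 0.519), against -0.03 (SE 0.0784) for E004. The 3 bins were close to each other, with own log2 fold changes of -3.03, -2.77 and -2.91. Together they made up 1.21% ± 0.529 of the gene's counts under AAV.CTRL and 0.160% ± 0.0962 under AAV.ULK1.DN (SD, n = 3 cultures per group).

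Of these bins, E001 passed the usage threshold with a log2 change of -3.01 (SE 0.576, adjusted p 1.26e-05 from the DEXSeq model), and its rest overlapped between the groups (log2 fold change -0.04, SE 0.0786). E004 passed with a usage change of 2.91 (SE 0.549, adjusted p 4.03e-04 from the same model), although its own count overlapped between the groups, since the ratio is taken to the other 3 bins. Set against the median change of its gene's other well-covered bins in place of their sum, E001 changed by -1.50, because only E003 and E004 had a mean of at least 10 and entered that median. The gene as a whole had a log2 fold change of -0.05 (SE 0.0783). The counts behind the lower run are small: for E001, the 9 counts in AAV.ULK1.DN against 75 in AAV.CTRL give a ratio of 0.119, with a 95% exact interval of 0.0523 to 0.238. Such intervals cover counting error only.

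ENSRNOG00000024428 showed the same arrangement over 19 bins. Summed over E001 to E015, the counts were 171, 151 and 78 under AAV.CTRL and 29, 37 and 23 under AAV.ULK1.DN. The sums of E016 to E019 were 418, 368 and 296 under AAV.CTRL and 404, 364 and 325 under AAV.ULK1.DN. The groups did not overlap in the first run and overlapped throughout the second. The log2 fold changes were -2.18 (SE 0.357) and 0.01 (SE 0.173).

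The first run took 26.3% ± 4.74 of the gene's counts under AAV.CTRL and 7.51% ± 1.49 under AAV.ULK1.DN (SD, n = 3 cultures per group). AAV.CTRL culture 3 was the lowest of its group, with 20.9% against 29.0 and 29.1%, and remained above the highest AAV.ULK1.DN culture at 9.23%. All 15 bins of the run had a lower own count under AAV.ULK1.DN, with log2 fold changes from -3.82 to -1.17, and in 9 of the 15 the groups did not overlap. No bin of this run had a mean of 10 normalised counts over the 6 cultures. For bins below that mean, no share of non-overlapping bins over the series was computed.

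E012 and E013 passed the usage threshold in this gene. Their own log2 fold changes were -3.82 (SE 0.783) and -3.29 (SE 0.620), and those of the rest, which includes the other bins of the run, were -0.31 (SE 0.192) and -0.30 (SE 0.194), with overlapping groups. E012 had 15, 12 and 6 counts under AAV.CTRL and 1, 0 and 1 under AAV.ULK1.DN. The 2 counts against 33 give a ratio of 0.0600, with a 95% exact interval of 0.00697 to 0.235. E013 had 16, 15 and 11 counts under AAV.CTRL and 3, 0 and 1 under AAV.ULK1.DN. Their usage changes were -3.74 (SE 1.06) and -3.10 (SE 0.764) on the log2 scale. Both were at 0 in AAV.ULK1.DN culture 2, and both missed the threshold when this culture or AAV.CTRL culture 2 was left out. The normalised sum of all 19 bins ran from 360 to 569 under AAV.CTRL and from 328 to 456 under AAV.ULK1.DN, with overlapping groups and a log2 fold change of -0.34 (SE 0.193). With the bin of the highest count in place of the sum, the change of the gene was 0.06, so the negative value came with the first run.

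**Figure D2:**
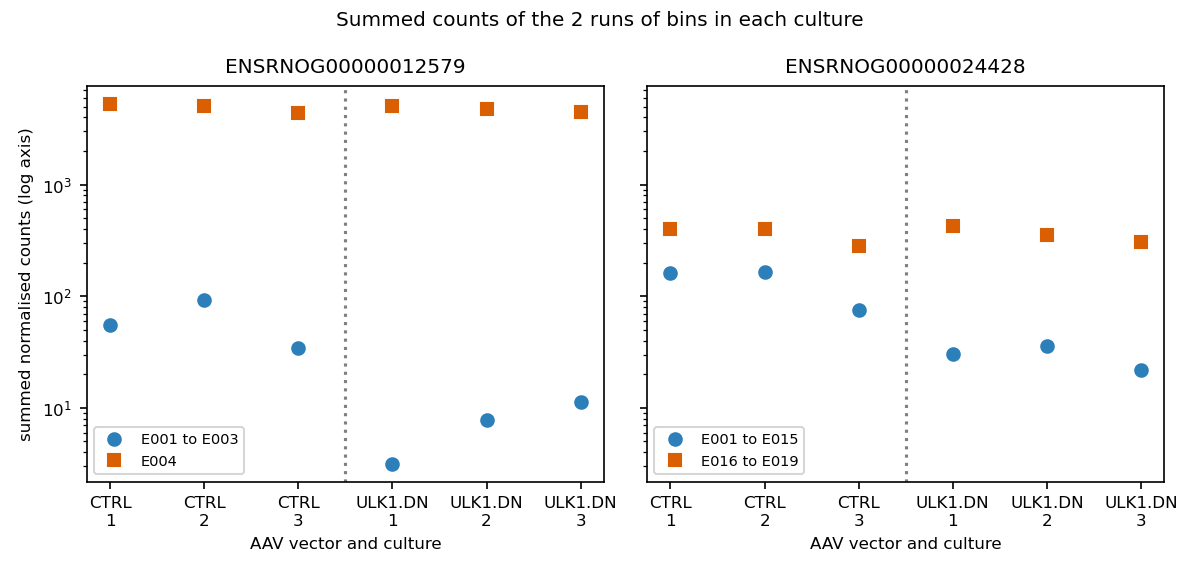
Summed normalised counts (vertical axis, logarithmic) of the 2 runs of bins of ENSRNOG00000012579 and ENSRNOG00000024428 are plotted for each culture. The weakly covered runs E001 to E003 and E001 to E015 lie lower in all 3 AAV.ULK1.DN cultures, whereas E004 and E016 to E019 overlap between the groups.

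ENSRNOG00000013884 has 26 bins, of which 17 had a mean of at least 10 normalised counts. Its step lay between E016 and E017. Summed over E001 to E016, the counts were 1366, 1301 and 1630 under AAV.CTRL and 818, 1146 and 1235 under AAV.ULK1.DN, and the groups did not overlap. The sums of E017 to E026 were 2677, 2347 and 3512 under AAV.CTRL and 2043, 3958 and 3457 under AAV.ULK1.DN. In this second run AAV.ULK1.DN culture 1 was the lowest of all 6 cultures and AAV.ULK1.DN culture 2 the highest.

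The log2 fold changes of the runs were -0.44 (SE 0.131) and 0.13 (SE 0.208). Of the 16 bins of the first run, 9 had a mean of at least 10 normalised counts. Their own log2 fold changes ran from -0.86 to -0.23. Of these 9, 5 were lower without overlap (9.59% of bins with such a mean over the series) and 4 overlapped. The first run made up 33.7% ± 1.98 of the gene's counts under AAV.CTRL and 25.8% ± 3.10 under AAV.ULK1.DN (SD, n = 3 cultures per group), without overlap. The whole gene had a log2 fold change of -0.04 (SE 0.180), with a normalised count of 4265 ± 592 under AAV.CTRL and 4143 ± 1019 under AAV.ULK1.DN. Its sign turned when AAV.ULK1.DN culture 1 was left out (0.15) or AAV.CTRL culture 3 was left out (0.09).

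Of the 3 bins of this gene that passed, E003 and E016 belong to the lower run. E003 had 67, 57 and 72 counts under AAV.CTRL and 25, 49 and 35 under AAV.ULK1.DN, and its own log2 fold change was -0.86 (SE 0.216) against -0.03 (SE 0.182) for the rest. E016 had 106, 107 and 138 counts under AAV.CTRL and 54, 84 and 96 under AAV.ULK1.DN, with -0.60 (SE 0.178) for the bin and -0.03 (SE 0.182) for the rest. In both, the groups separated in the bin and overlapped in the rest. With the replicate number as a block, E016 no longer passed (adjusted p 0.105 from the DEXSeq model).

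E017, the first bin after the step, had 184, 179 and 285 counts under AAV.CTRL and 191, 353 and 339 under AAV.ULK1.DN. Its own count overlapped between the groups, and so did the rest. The ratio did not: E017 amounted to 5.27% ± 0.557 of the other bins under AAV.CTRL and 7.46% ± 0.318 under AAV.ULK1.DN (SD, n = 3 cultures per group), since AAV.ULK1.DN culture 1 was low in the bin and in the rest alike. Its usage change was 0.50 (SE 0.0949), or 0.71 against the median of the gene's other well-covered bins. E017 had the highest own change in its run, 0.43 (SE 0.191), and E018 next to it had 0.03 (SE 0.178).

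The union of ENSRNOG00000020249 and ENSRNOG00000020185 has 16 bins, all with a mean of at least 10 normalised counts. A union is formed where the exons of annotated genes overlap, and which bin belongs to which of the 2 genes was not known here. The library kit does not mark the strand, so reads of overlapping genes on opposite strands cannot be told apart. E001 to E006 carried most of the counts, with sums of 21674, 17960 and 20847 under AAV.CTRL and 15834, 15921 and 17981 under AAV.ULK1.DN. E007 to E016 summed to 1653, 1354 and 1654 under AAV.CTRL and 1856, 1865 and 1892 under AAV.ULK1.DN.

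After normalisation neither run overlapped between the groups, and they went in opposite directions. The first run had 20129 ± 479 normalised counts under AAV.CTRL and 16400 ± 736 under AAV.ULK1.DN (log2 fold change -0.29, SE 0.0546), and the second had 1550 ± 56.6 under AAV.CTRL and 1854 ± 88.5 under AAV.ULK1.DN (0.26, SE 0.0673; SD, n = 3 cultures per group). The second run took 7.15% ± 0.179 of the counts under AAV.CTRL and 10.2% ± 0.559 under AAV.ULK1.DN. Within the first run all 6 bins were lower without overlap, with own log2 fold changes from -0.31 to -0.25. Within the second run all 10 bins had a change above 0, from 0.14 to 0.48, and 7 were higher without overlap. Over the series, 9.59% of bins with a mean of at least 10 were lower without overlap and 9.54% higher.

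The 5 bins that passed in the union were E007, E008, E009, E012 and E016, all in the second run and all with higher usage. E008 had 178, 132 and 172 counts under AAV.CTRL and 224, 219 and 231 under AAV.ULK1.DN. It amounted to 0.742% ± 0.0470 of the other bins under AAV.CTRL and 1.24% ± 0.0542 under AAV.ULK1.DN (SD, n = 3 cultures per group), a log2 change of usage of 0.73 (SE 0.0912). The own log2 fold change of E008 was 0.48 (SE 0.1104) and that of the rest -0.25 (SE 0.0534). E007 had 202, 166 and 193 counts under AAV.CTRL and 278, 241 and 243 under AAV.ULK1.DN, with an own change of 0.44 (SE 0.114) and a usage change of 0.69 (SE 0.114). E007 and E008 were the members of the 17 bins that diffSpliceDGE of edgeR also called.

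The increase was largest next to the step and smaller beyond it. The own changes of E007 to E010 were 0.44, 0.48, 0.32 and 0.32, and those of E011 to E016 lay between 0.14 and 0.19. E012 and E016 had own changes of 0.19 (SE 0.112) and 0.17 (SE 0.103), smaller than the change of the rest, -0.25 for both. Measured against the median change of the other bins, which here is that of the second run, the usage changes were 0.28 for E007, 0.32 for E008 and 0.16 for E009, and only 0.03 for E012 and 0.01 for E016. The usage of these last 2 bins thus moved with their whole run and with the lower count of E001 to E006. The union as a whole had 21679 ± 519 normalised counts under AAV.CTRL and 18254 ± 750 under AAV.ULK1.DN, a log2 fold change of -0.24 (SE 0.0525), which follows the abundant first run and is opposite to the second.

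**Figure D3:**
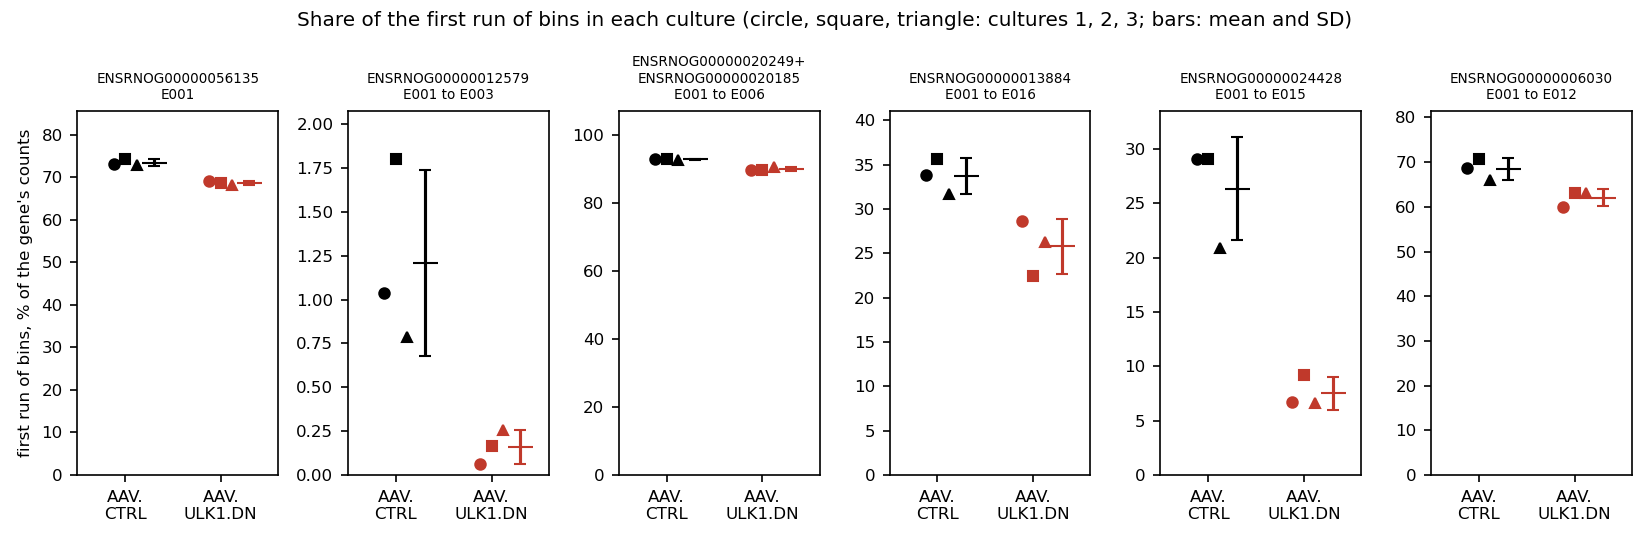
The share of the first run of bins in the gene's counts (vertical axis, percent, each panel from 0) is plotted for the 6 genes, with 1 point per culture and the mean and SD of 3 cultures beside them. In all 6 genes the 3 AAV.ULK1.DN cultures lie below the 3 AAV.CTRL cultures; the group means under AAV.CTRL and AAV.ULK1.DN are 92.9% and 89.8% in the gene union, 26.3% and 7.51% in ENSRNOG00000024428 and 1.21% and 0.160% in ENSRNOG00000012579. Genes and boundaries were both chosen on these values, so the separation was favoured in advance and is a description only.

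ENSRNOG00000056135 has 3 bins, and all were higher under AAV.ULK1.DN without overlap (9.54% of bins with a mean of at least 10 over the series). E001 had 1257, 883 and 1057 counts under AAV.CTRL and 1639, 1382 and 1437 under AAV.ULK1.DN. E002 had 230, 165 and 192 counts under AAV.CTRL and 333, 292 and 336 under AAV.ULK1.DN. E003 had 233, 139 and 203 counts under AAV.CTRL and 399, 341 and 337 under AAV.ULK1.DN. The own change grew along the bin numbers, with log2 fold changes of 0.48 (SE 0.104), 0.71 (SE 0.113) and 0.91 (SE 0.139).

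E001 therefore passed with lower usage (log2 change -0.33, SE 0.0686), although its own count was higher, because E002 and E003 together had moved further (0.81, SE 0.138). E003 passed with higher usage (0.39, SE 0.0897), with 0.91 for the bin and 0.52 (SE 0.117) for the rest. E002 and E003 made up 26.6% ± 0.849 of the gene's counts under AAV.CTRL and 31.4% ± 0.512 under AAV.ULK1.DN (SD, n = 3 cultures per group). The gene as a whole had 1445 ± 174 normalised counts under AAV.CTRL and 2152 ± 298 under AAV.ULK1.DN, a log2 fold change of 0.58 (SE 0.118), which is larger than either usage change. E003 passed in none of the fits that left out 1 culture, nor with the replicate number as a block (adjusted p 0.387 from the DEXSeq model).

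ENSRNOG00000006030 has 30 bins, and all of them were lower under AAV.ULK1.DN without overlap (9.59% of bins with a mean of at least 10 over the series). The summed normalised counts were 20080, 29333 and 17198 under AAV.CTRL and 9678, 10811 and 11907 under AAV.ULK1.DN. AAV.CTRL culture 2 was well above the other controls. The log2 fold change of the gene was -1.03 (SE 0.178), and between -1.18 and -0.79 when 1 culture was left out. E012 alone held 37.1% ± 2.23 of the gene's counts under AAV.CTRL and 32.9% ± 0.709 under AAV.ULK1.DN (SD, n = 3 cultures per group).

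The decrease was steeper in E001 to E012 than in E013 to E030, with log2 fold changes of -1.18 (SE 0.204) and -0.75 (SE 0.133). The 12 bins of the first run lay between -1.22 and -1.05. In the second run, 17 of the 18 bins lay above them. This run took 31.5% ± 2.42 of the counts under AAV.CTRL and 37.9% ± 1.84 under AAV.ULK1.DN (SD, n = 3 cultures per group).

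E014 and E029 passed with higher usage in this gene, by 0.36 (SE 0.0756) and 0.42 (SE 0.0825), while their own counts were lower. E014 had 383, 436 and 318 counts under AAV.CTRL and 202, 237 and 287 under AAV.ULK1.DN, an own change of -0.67 (SE 0.144) against -1.04 (SE 0.180) for the rest. E029 had 393, 448 and 338 counts under AAV.CTRL and 230, 272 and 283 under AAV.ULK1.DN, an own change of -0.61 (SE 0.129). Here higher usage means a smaller decrease than that of the rest.

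E016 stood apart from its neighbours. It had 66, 78 and 52 counts under AAV.CTRL and 15, 21 and 15 under AAV.ULK1.DN, and its own log2 fold change was -1.95 (SE 0.259), against -0.75 (SE 0.159) for E015 and -0.69 (SE 0.135) for E017. It amounted to 0.299% ± 0.0127 of the other bins under AAV.CTRL and 0.158% ± 0.0360 under AAV.ULK1.DN (SD, n = 3 cultures per group), a log2 change of usage of -0.94 (SE 0.231). E016 is the 1 passed bin of this gene that changed more than the rest in the same direction. It passed in none of the fits that left out 1 culture.

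**Figure D4:**
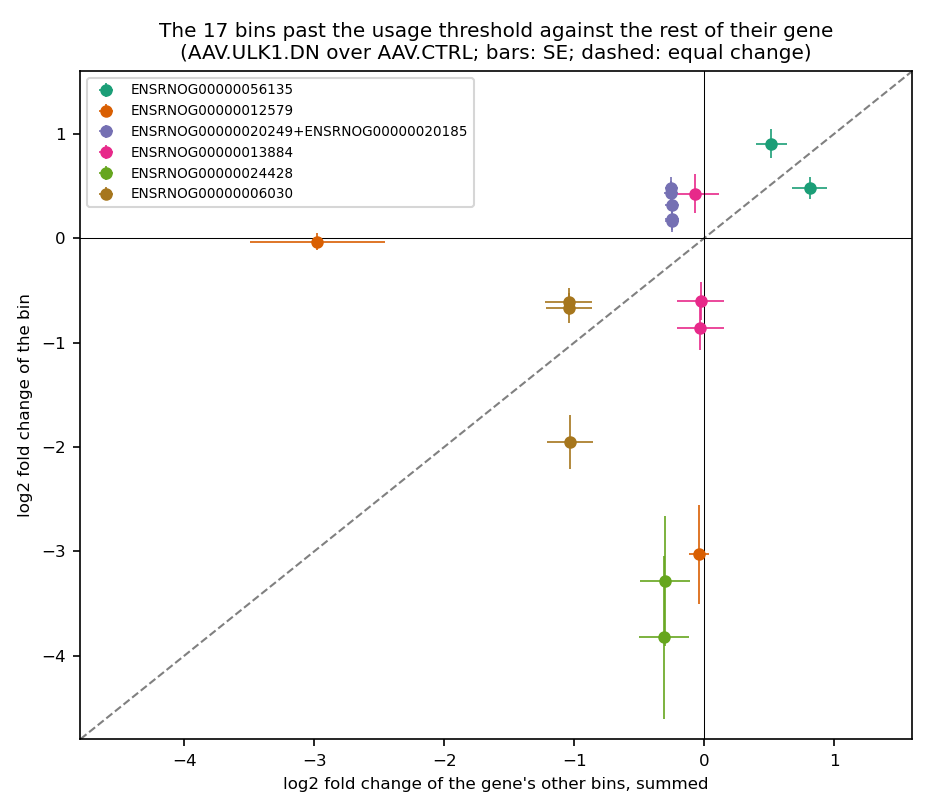
The log2 fold change of the bin (vertical axis) is plotted against that of the gene's other bins, summed (horizontal axis), for the 17 bins past the usage threshold, with standard errors as bars and 3 cultures per group. Points on the dashed line would have equal changes of bin and rest; the 11 bins farther from 0 vertically than horizontally changed more than the rest, and the other 6 changed less.

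Over the 17 passed bins, the bin changed more than the rest in 11 and the rest more than the bin in 6. Those 6 were E004 of ENSRNOG00000012579, E001 of ENSRNOG00000056135, E012 and E016 of the gene union, and E014 and E029 of ENSRNOG00000006030. In 4 bins the own count and the usage had opposite signs, namely E004 of ENSRNOG00000012579, E001 of ENSRNOG00000056135, and E014 and E029 of ENSRNOG00000006030. The usage ratios did not overlap between the groups in 17 of 17, and the own counts in 15, with E004 of ENSRNOG00000012579 and E017 of ENSRNOG00000013884 as the other 2. Over all bins of the series with a mean of at least 10, the ratios did not overlap in 4.66% with the higher values in AAV.ULK1.DN and in 4.48% with the lower ones, but the 17 bins were chosen by this ratio.

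Summed over their bins, 1 of the 6 genes was higher without overlap (11.8% of genes tested in the series), 2 were lower (14.1%) and 3 overlapped. Over the 73 bins of the 6 genes with a mean of at least 10 normalised counts, the own count was higher without overlap in 10 and lower in 43, and it overlapped in 20. Of the 43 lower bins, 30 belong to ENSRNOG00000006030, so the count mostly reflects that gene. Over the series, 9.54% of such bins were higher without overlap and 9.59% lower. The median own log2 fold change was -0.43 over the 73 bins and 0.02 over the 133305 bins tested in the series.

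To compare the steps, each gene with at least 3 bins was divided into 2 runs at the boundary that best separated their changes. The difference between the runs, second minus first, was 2.99 on the log2 scale in ENSRNOG00000012579, 2.19 in ENSRNOG00000024428, 0.58 in ENSRNOG00000013884, 0.55 in the gene union, 0.43 in ENSRNOG00000006030 and 0.33 in ENSRNOG00000056135. The comparison took genes whose 2 runs each had counts in both groups and a mean of at least 30 normalised counts. Over these 9489 genes, divided in the same way, the median absolute difference was 0.14 and the 95th percentile 0.47. The differences of ENSRNOG00000006030 and ENSRNOG00000056135 thus lay below this 95th percentile. The compared genes were not matched to them by count, so this does not show how common such steps are at their depth. The boundary was chosen on the values themselves, so these numbers describe and do not test.

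Model and single cultures both moved the number of calls. Of the 17 bins, diffSpliceDGE also called 2 (0.0236% of bins called over the series), the DEXSeq model with 1 round of dispersion estimates 4 (0.0237%) and with the replicate number as a block 15 (0.0594%). Without AAV.ULK1.DN culture 2, only 5 bins of the 6 genes passed, without AAV.CTRL culture 2 there were 8, and without AAV.ULK1.DN culture 1 there were 10. Of the 17 bins, 3 passed whichever culture was left out, namely E004 of ENSRNOG00000012579 and E007 and E008 of the gene union. For E004, diffSpliceDGE gave 0.015 and made no call, against a log2 change of usage of 2.91 in the main fit. These are different measures. The main fit sets a bin against the gene's other bins, whereas the diffSpliceDGE value sets it against the whole gene with the bin included. E004 held 98.8% of the gene's counts under AAV.CTRL and 99.8% under AAV.ULK1.DN, so its diffSpliceDGE value had to lie near 0. E004 had no value in the fit that dropped bins with fewer than 10 counts in any culture. The 2 bins that passed in none of these fits were E003 of ENSRNOG00000056135 and E016 of ENSRNOG00000006030. Neighbouring bins can count the same fragment, so bins of a run are not independent observations.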

How the data were processed

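The authors aligned paired-end reads to rn6 with STAR (2.5.2a; bcl2fastq 2.17.1.14 and FastQC 0.11.5 per the submitters' processing notes) and deposited raw counts per exon bin; strand and quality settings of the counting are not given in the sources used here. Usage was tested with the DEXSeq model rebuilt from DESeq2 1.42.0 in R 4.3.3 (likelihood-ratio test, up to 10 rounds of dispersion estimates, Benjamini-Hochberg adjustment over the bins kept by independent filtering). Changes of bins, of the summed other bins, of runs and of genes came from edgeR 4.0.16 (quasi-likelihood fit, TMM, filterByExpr; genes called when the adjusted p was under 0.05 and the fold change beyond 1 on the log2 scale). Standard errors of usage changes are from the DEXSeq model fit. Those of the edgeR values were derived as the absolute log2 fold change divided by the square root of the quasi-likelihood F statistic. Bins under the edgeR filter were taken from a fit without it. Scripts were tested on simulated data. Cultures with the same number deviated together (correlations of 0.292 to 0.457 over 14529 genes, different numbers -0.349 to -0.0229), so the numbers pair the cultures. The numbers come from the labels. The main fits and the standard errors and SDs given above did not use this pairing, which entered only with the replicate block. Alternatives covered the tool, filters, scaling, reference bins, replicate block and left-out cultures. Members and lists were chosen with earlier results of these data known. The passed bins and all other bins of the members were described by the rule for named genes. Its lists, the cell type markers and the most alike genes needed gene symbols, and 0 of 32883 identifiers matched the reference table used here, so they were not applied and the labelled cell type was not checked. No sequences are shown for that reason.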

Additional observations from a re-analysis of the deposited data

How the results depend on the processing

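The number of bins past the usage threshold depended most on the model and on single cultures. Over all genes, 70 bins passed; with diffSpliceDGE of edgeR 37 passed, with 1 round of dispersion estimates, an alternative chosen after seeing the data, 37, with the replicate block 93, and with 1 culture left out 46 to 87. In the 6 genes, the counts were 17, 2, 4, 20 and 5 to 20 in the same order, and 15 of the 17 bins kept their call with the block. Over the 6 genes, the alternatives gave 13 bins with only bins of at least 10 counts in every sample, 16 without independent filtering and 17 with TMM size factors.

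Over all genes, the 1247 bins with a higher and the 2489 with a lower own count (edgeR, adjusted p) became 2533 and 4918 without the filter on low counts, 3990 and 5938 with the replicate block, and 298 to 1280 and 902 to 2862 with 1 culture left out. The 26 genes called higher became 42 with DESeq2, 40 without the filter, 61 with the block, 212 by the adjusted p alone and 1 to 26 with 1 culture left out. The 282 called lower became 479 with the block, 452 by the adjusted p alone and 0 to 341 with 1 culture left out. The count of 0, from edgeR, came without AAV.CTRL culture 1 or 2 or AAV.ULK1.DN culture 1, where 1427, 1314 and 1452 genes were lower at an unadjusted p under 0.05; DESeq2 was not run on these subsets.

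Signs turned for 4 values, each with overlapping groups. With 1 culture left out, the own change of E004 of ENSRNOG00000012579 lay between -0.10 and 0.025 (main value -0.03), that of this gene between -0.12 and 0.0084 (-0.05), and that of ENSRNOG00000013884 between -0.19 and 0.15 (-0.04). With 1 bin per gene, the change of ENSRNOG00000013884 was 0.077 and that of ENSRNOG00000024428 was 0.063 (main value -0.34). Usage changes kept their sign, but over the alternatives 12 values differed clearly in size from the main value and 205 did not. All of the 12 but those named next came with the median of the other bins as the reference. With diffSpliceDGE, E001 of ENSRNOG00000056135 had -0.098 (main value -0.33) and E004 of ENSRNOG00000012579 had 0.015 (main value 2.91). The diffSpliceDGE values take the whole gene, with the bin included, as the reference, so they are not the same measure as the main values. Without AAV.ULK1.DN culture 1, E013 of ENSRNOG00000024428 had -4.45 (main value -3.10). What caused the turned signs and the change of E013 was not tested. With 3 cultures per group, an exact permutation test cannot give a p under 0.1, and bins with few counts, such as those of E001 to E015 in ENSRNOG00000024428, are limited by depth.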
